A study of Mus musculus with 8 samples.

Results

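The transcripts described here are those recovered with an antibody to NONO from liver nuclei of mice killed 2 h after re-feeding, set against the background that a non-specific IgG recovered. The set comprised all 61737 peaks of the 2 h re-fed anti-NONO list, out of 206501 peaks in the 4 deposited lists, and each was classed by whether any of the 55946 IgG peaks covered at least 1 bp of it. Genes were then compared by the ratio of NONO to IgG signal summed over the gene body in the GENCODE M21 annotation of mm10. A 2 h peak lay over 8733 genes and an IgG peak over 8870 of 32106 annotated genes. Both lists had a peak over 6963 genes, 1770 had only 2 h peaks and 1907 had only IgG peaks. Of the 6963 genes, 4940 reached the minimum of 50 normalised tags in at least 1 list and were given a ratio, and the rest were not compared.

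NONO is a nuclear RNA-binding protein that pairs with SFPQ or PSPC1 and takes part in transcription, splicing and the retention of RNA in the nucleus. Together with its partners it coats the long non-coding RNA Neat1 in paraspeckles. In RNA immunoprecipitation the protein is drawn out of a lysate with its RNA, and an IgG of no set specificity shows what RNA comes along without it. In liver, feeding after a fast turns the hepatocyte from glucose release and fat burning towards glycogen and fat synthesis, and the circadian clock times many of the same genes.

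All libraries came from wild type C57BL/6 mice aged 14 weeks, kept under a cycle of 12 h light and 12 h dark and given food only in the dark for the preceding week. The 2 h re-fed animals were taken at zeitgeber time 14, counted in hours from lights on. Food and hour of day therefore moved together against the fasted (zeitgeber time 10) and 10 h re-fed (zeitgeber time 22) groups, whose NONO values are given only as context. The labels give no feeding state and no hour for the IgG library. Each of the 4 libraries compared (NONO, its input, IgG and its input) was a pool of 2 experiments, with no replicate. No difference below therefore has a replicate check or a p-value, and the intervals cover counting error only. In bulk nuclei, fewer cells of a type and less RNA per cell cannot be told apart.

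The NONO immunoprecipitate held 21091048 tags, of which 26.1% lay in peaks, and the IgG immunoprecipitate 18995778 tags, of which 53.2% lay in peaks. A tag is an aligned read, and normalised tags are tags per 10000000 tags of the library. One IgG peak, on the 7SK RNA gene Rn7sk, took 37.5% of the IgG library, and no 2 h peak lay over Rn7sk. IgG tags were therefore also expressed per 10000000 tags outside that peak, which multiplies them by 1.6 (a shift of 0.68 on the log2 scale). This is called rescaled below, and ratios use it unless said otherwise. Of the 8 hepatocyte markers, 4 had a 2 h peak and 7 an IgG peak. Alb and Ttr had no 2 h peak, and Apoa1 had none in either list. A peak requires at least 2-fold more tags than input, so a gene without one may still be expressed.

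Peaks over 2 microRNA precursors were among the 8 IgG-free peaks with most tags. The highest NONO to IgG ratio of all named genes belonged to 6720427I07Rik, a long non-coding gene that spans the let-7a-1, let-7f-1 and let-7d hairpins. The IgG-free peak with the fourth most tags lay over the end of Vmp1 and the Mir21a hairpin. The mature 5p strands of these hairpins, from RefSeq (GRCm38.p6), are printed to show what the 2 precursors encode, with the seed (bases 2 to 8) in capitals. The libraries measure the long nuclear RNA around the hairpins and not these mature RNAs.
mmu-let-7a-5p: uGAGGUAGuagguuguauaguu
mmu-let-7f-5p: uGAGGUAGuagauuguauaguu
mmu-let-7d-5p: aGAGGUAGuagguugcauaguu
mmu-miR-21a-5p: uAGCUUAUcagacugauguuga
The 3 let-7 members share the seed GAGGUAG, and miR-21a has the seed AGCUUAU. Of 1005 hairpins in the RefSeq table, 110 lay under a 2 h peak, 59 under an IgG-free 2 h peak (of all 2 h peaks, 60.7% were IgG-free) and 43 under an IgG peak.

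In 6720427I07Rik (chromosome 13, 48532905 to 48546500, minus strand) the 2 h NONO library held 2206 normalised tags, and IgG 19.5 as deposited or 31.2 rescaled. The fasted NONO library held 1599 and the 10 h library 565. The ratio at 2 h was 70.7 (95% exact conditional binomial interval 51.3 to 100.7). All 3 let-7 hairpins lay under 1 peak (48533197 to 48540132) of 2007.5 normalised tags at 2.38-fold over input. The single IgG peak of the gene lay outside it. Vmp1, which encodes an autophagy membrane protein, held 3046 normalised tags at 2 h against 373 rescaled IgG tags, a ratio of 8.17 (7.42 to 9.01). Its Mir21a peak (chromosome 11, 86579989 to 86584779) carried 2302 of them at 2.77-fold over input, and 915 of its 4790 bp lay inside the annotated gene. The fasted library held 2705 and the 10 h library 1963 normalised tags over Vmp1, so NONO signal there was above the IgG level at all 3 times. With peaks of at least 4-fold over input alone, which leave out the Mir21a peak, the Vmp1 ratio was 0.241.

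Peaks without an IgG peak over them (IgG-free peaks) made up 37446 of the 61737, or 60.7%. They were small. Their median was 12.3 normalised tags over 633 bp, against 30.3 over 1068 bp for the 24291 peaks that met IgG. They held 8.17% of the library and the others 17.9%. Their median fold over input, as the authors computed it from immunoprecipitate and input, was 3.49 against 2.68. The IgG-free share was 86.9% (exact Clopper-Pearson 95% interval 86.0 to 87.7) in the lowest of 10 equal classes of peaks by tags and 18.1% (17.2 to 19.1) in the highest. By fold over input the share rose, from 45.8% of peaks at 2- to 3-fold to 86.7% at 10-fold or more. The classes of high fold were also those of few tags. Their median was 32.7 normalised tags at 2- to 3-fold and 6.16 at 10-fold or more. IgG peaks without a 2 h peak likewise had a higher median fold (4.51) than all IgG peaks (4.16).

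**Figure D1:**
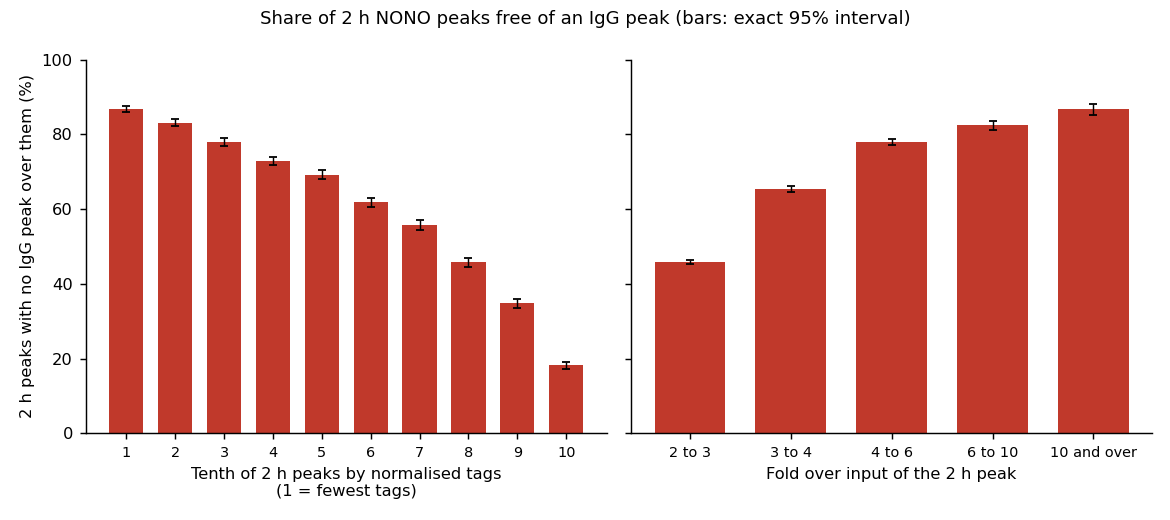
Percentage of 2 h NONO peaks with no IgG peak over them, on the left in 10 equal classes by normalised tags and on the right by the authors' fold over input; bars are shares and whiskers exact 95% intervals (counting error only). The share goes from 86.9% to 18.1% across the classes of tags and from 45.8% to 86.7% across the classes of fold.

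IgG-free peaks had shares of intron and exon within 3 percentage points of the others. By the midpoint of the peak, 86.1% were intronic, 6.31% exonic, 1.34% in the 1000 bp upstream of a gene and 6.29% intergenic. Peaks that met IgG were 88.9% intronic and 5.29% exonic, and the whole IgG list was 87.7% intronic and 6.10% exonic. Along genes of at least 10000 bp, cut into 10 equal stretches, the first stretch held 11.8% of IgG-free peaks, 10.4% of peaks that met IgG and 10.4% of IgG peaks. The last stretch held 7.58%, 5.91% and 7.08%. Most IgG-free peaks were not far from IgG signal. An IgG peak lay within 1000 bp of 27.0% and within 10000 bp of 83.2% of them, and 87.5% lay over a gene that carried an IgG peak elsewhere. In most cases an IgG-free peak was thus a separate stretch of a gene with IgG signal elsewhere.

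The 8 IgG-free peaks with most tags held between 1676 and 2771 normalised tags. The first, of 2771 normalised tags, covered Sfpq, which encodes the partner of NONO (chromosome 4, 127027846 to 127034783, 2.27-fold over input). The next 2 lay over Adk, the adenosine kinase gene, with 2739, and Cps1, the first enzyme of the urea cycle, with 2311. After the Vmp1 peak came a peak of 2171 over the overlapping genes Podn and Scp2 (Scp2 encodes a sterol carrier protein) and the let-7 peak. Dnaja1, a chaperone gene, had 1770, and Nr1h4, which encodes the bile acid receptor FXR, had 1676. All 8 lay between 2.05- and 2.77-fold over input, and for 3 of them an IgG peak lay within 1000 bp. Over the whole gene body, Adk (ratio 1.46), Cps1 (0.547) and Nr1h4 (1.19) were within 2-fold of IgG, and Podn (3.15), Scp2 (2.62), Dnaja1 (4.37), Sfpq and Vmp1 were above it. With peaks over 1 gene alone Podn was at 1.52 and Scp2 at 1.25.

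Few promoters lay under a 2 h peak. Of 32851 RefSeq promoter windows (250 bases before to 50 after the start), 531 touched an IgG-free 2 h peak, or 1.62%. A 2 h peak that met IgG touched 513, or 1.56%. The GC box GGGCGG, searched on both strands, was in 32.0% of the 531, in 35.7% of all windows and in 46.9% of the 1134 windows under an IgG peak. The E-box CACGTG was in 8.48%, 7.15% and 9.08%, and TATAAA in 12.2%, 13.6% and 10.9%. In the 513 the shares of GC box, E-box and TATAAA were 32.4%, 9.75% and 12.1%. None of the 3 motifs overlaps another in its letters. The windows of Nr1h4, which the IgG-free peak covered in full, and of Gbe1 (the glycogen branching enzyme), where it covered 222 bases, show a window without any of the 3 motifs and one with the GC box, in capitals. They read 5′ to 3′ on the strand of the gene (RefSeq, GRCm38.p6), chr10:89506609-89506908 on the minus strand and chr16:70313699-70313998 on the plus strand.
Nr1h4: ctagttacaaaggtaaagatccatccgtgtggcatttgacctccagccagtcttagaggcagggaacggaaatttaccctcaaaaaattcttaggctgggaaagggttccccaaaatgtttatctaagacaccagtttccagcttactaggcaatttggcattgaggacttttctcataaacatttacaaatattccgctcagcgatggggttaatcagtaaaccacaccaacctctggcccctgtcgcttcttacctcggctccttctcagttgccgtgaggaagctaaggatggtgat
Gbe1: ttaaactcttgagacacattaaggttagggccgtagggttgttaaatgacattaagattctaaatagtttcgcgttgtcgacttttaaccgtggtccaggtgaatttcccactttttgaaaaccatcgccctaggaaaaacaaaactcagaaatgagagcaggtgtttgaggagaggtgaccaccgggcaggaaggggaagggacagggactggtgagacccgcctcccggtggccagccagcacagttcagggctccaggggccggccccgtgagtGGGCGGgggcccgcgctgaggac
The GC box of the Gbe1 window lay past the 222 covered bases, so it was not under the 2 h peak. The Nr1h4 window lies inside the annotated gene body (89454234 to 89533585, minus strand) and not at its 5′ end. The peak over the Nr1h4 window held 231.9 normalised tags at 2.14-fold over input, and that over the Gbe1 window 35.6 at 2.3-fold. Both were small beside the totals of their genes (4686 and 6280).

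At the level of genes, 1494 of the 4940 with a ratio were at least 2-fold higher in NONO than in IgG (above background), or 30.2%, and 778 were at least 2-fold lower, or 15.7%. The median ratio was 1.38. With IgG tags as deposited, 55.7% were above and 9.76% below. Another 268 of the 4798 genes with at least 50 normalised NONO tags had no IgG peak at all, or 5.59%. In the other direction, 246 genes with at least 50 normalised IgG tags as deposited had no 2 h peak. Strand could not be used, so overlapping antisense genes share their peaks. The lowest ratio among genes above background was 2.001 and the highest just outside 1.999. Between 1.8 and 2.2 lay 489 genes. Above background here refers to tags recovered. Where both lists called the same region, the 2 h input held 1.85 times the tags of the IgG input, and the part of RNA abundance in the ratios was not tested. Genes above background had a median length of 46.6 kb, genes within 2-fold 55.1 kb, and genes below 28.2 kb. The share above was between 28.7% and 32.7% in every length class up to 300 kb and 13.5% beyond it.

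**Figure D2:**
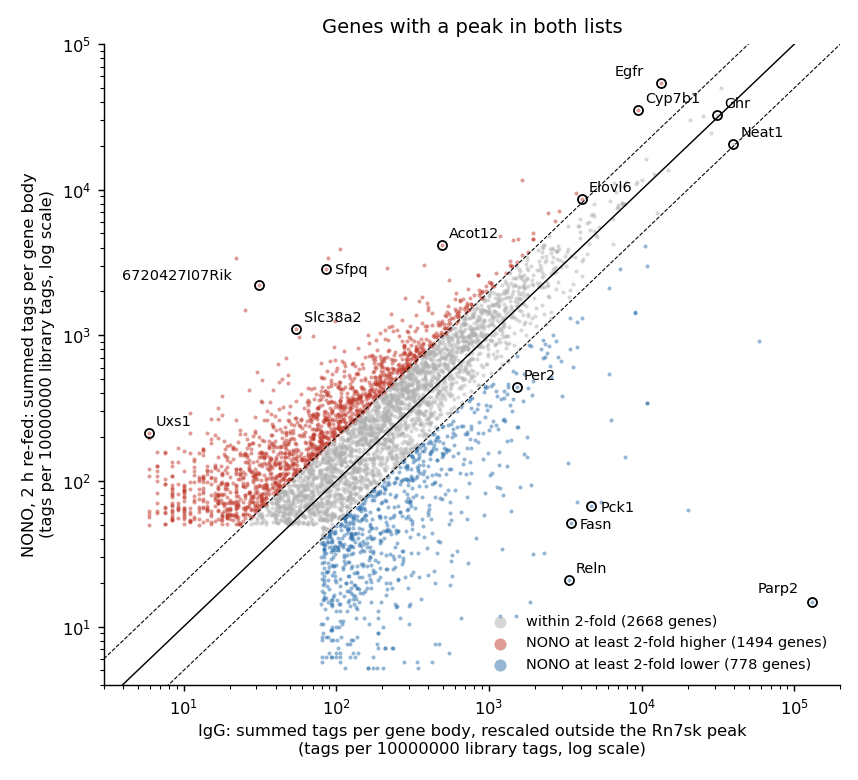
Summed normalised tags per gene body in the 2 h NONO library against IgG (rescaled), both on log scales, for the 4940 genes with a ratio; the solid line marks equality and the dashed lines 2-fold, and colours mark the class. The 1494 genes above background reach from Egfr and Cyp7b1 at high signal to genes with few IgG tags, and Parp2, Reln, Fasn and Pck1 lie far below.

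The 12 highest ratios, among genes with at least 200 normalised tags and their signal free of other coding genes, ran from 14.8 to 70.7. After 6720427I07Rik and Uxs1 came Sfpq. Its 2 h library held 2861 normalised tags, IgG 53.7 (85.9 rescaled), the fasted library 44.2 and the 10 h library 1468, a ratio at 2 h of 33.3 (27.4 to 40.9). NONO signal over Sfpq was thus high in both re-fed libraries and under the rescaled IgG level in the fasted one. Gm12940, an overlapping non-coding gene on the same strand, shares the main peak, which carried 2771 of the 2861 normalised tags. With peaks over 1 gene alone the ratio of Sfpq was 3.59 and that of Gm12940 0.849.

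Slc38a2, which encodes a transporter of neutral amino acids, held 1109 normalised tags at 2 h and 1065 at 10 h, against 54.7 rescaled IgG tags, and had no fasted peak (ratio 20.3, 15.8 to 26.3). The antisense gene D130020L05Rik also had no fasted peak, with 266.9 at 2 h, 230.4 at 10 h and 15.2 in IgG (ratio 17.6, 11.04 to 29.9). Serpinc1, the gene of antithrombin, held 631.6 at 2 h, 243.9 fasted, 1060 at 10 h and 41.3 in IgG (ratio 15.3, 11.5 to 20.8). In these 3 genes both re-fed values were above the fasted one. Slc17a1, a phosphate transporter gene whose main peak had 1105 of its 2486 bp inside the gene, held 314.8 at 2 h against 60.4 fasted, 104.0 at 10 h and 16.8 in IgG (ratio 18.7, 12.0 to 30.8). Nol10, a nucleolar protein gene, held 285 at 2 h against 64.3 fasted, 37.3 at 10 h and 17.8 in IgG (ratio 16.1, 10.5 to 26.2), with 14 peaks against 1 in IgG and a ratio per kb of 0.908. Iws1, a transcription elongation factor gene, held 418.2 at 2 h, 91.4 fasted, 253.9 at 10 h and 26.9 in IgG (ratio 15.5, 10.9 to 22.8). For these last 3 the 2 h value was the highest of the 3 times. The share of all library tags in peaks was also highest at 2 h (26.1%, against 11.6% fasted and 17.3% at 10 h).

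The other genes of the 12 were not highest at 2 h or had very few IgG tags. Uxs1, which encodes the enzyme that makes UDP-xylose, had 212.9 normalised tags at 2 h over 17 peaks and 7 raw tags in its only IgG peak, so its ratio of 36.1 has an interval of 17.4 to 90.4. Stk24, a kinase gene (ratio 26.6, 15.4 to 50.2, and 0.967 per kb), held 291.1 at 2 h and 414.8 fasted. Zfp799, a zinc finger gene (14.8, 9.14 to 25.6), held 211.9 and 319.5. Fcgr2b, an Fc receptor gene of the sinusoidal endothelium, held 384.1 at 2 h, 777.8 fasted, 943.9 at 10 h and 17.8 in IgG (ratio 21.6, 14.1 to 35.3). The 12 genes thus differ in the order of the 3 NONO libraries.

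**Figure D3:**
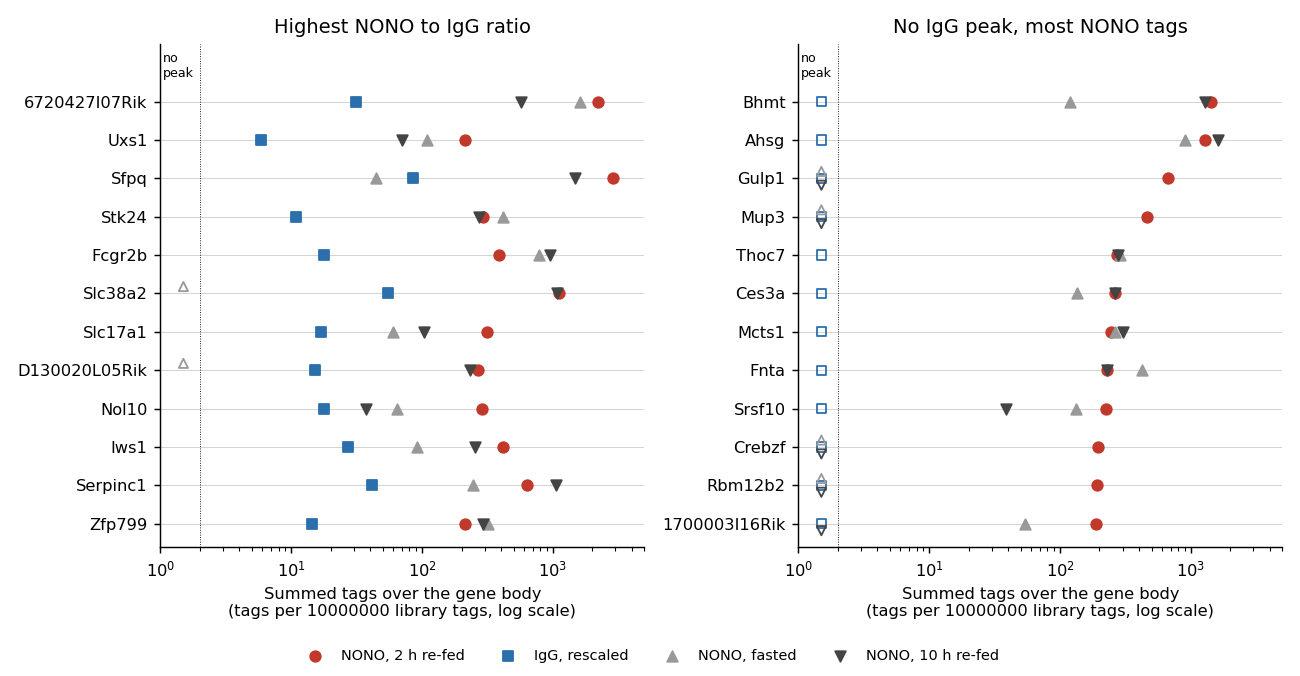
Summed normalised tags (log scale) in the 2 h NONO, rescaled IgG, fasted NONO and 10 h NONO libraries for the 12 genes with the highest ratio and the 12 genes without an IgG peak over the gene body that had most NONO tags; open symbols left of the dotted line mark a list with no peak over the gene. Sfpq, Slc38a2 and Bhmt are high in both re-fed libraries, and Gulp1, Mup3 and Crebzf have a peak at 2 h alone.

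Among genes without an IgG peak, the liver genes Bhmt and Ahsg held most signal. A missing peak is not a count of 0, so no ratio was formed. Bhmt, which remethylates homocysteine with betaine, held 1434 normalised tags at 2 h, 118.4 fasted and 1288 at 10 h. Ahsg, the fetuin-A gene, held 1291, 895.3 and 1596 in that order, and its antisense neighbour Gm30505 shares the peak. Mup3, of the major urinary protein family, held 462.3 at 2 h and had no other peak, and near-identical copies in that family leave the placement of its reads uncertain. Thoc7 (an RNA export complex subunit) held 274.5, 288.1 and 279.1, nearly level over the 3 times. Ces3a (a carboxylesterase with close paralogues) held 260.8, 134.6 and 264.8. Mcts1 (a translation re-initiation factor), Fnta (a farnesyltransferase subunit), Srsf10 (a splicing factor) and the non-coding 1700003I16Rik held between 186.8 and 244.7 at 2 h. Gulp1, with 672.5 at 2 h, and Crebzf (a bZIP factor), with 194.9, had no peak in any other list. The only peak of Rbm12b2 (193.0) met an IgG peak outside the gene body, and 285 of its 1722 bp lay inside the gene. That of 1700003I16Rik lay almost wholly upstream, with 10 of its 981 bp inside. Of the 268 genes, 41 (15.3%) had no peak at the other 2 times, against 29 (1.94%) of the 1494 above background, 68 (8.74%) of the 778 below and 2.53% of all genes with a ratio. The 268 genes were short, with a median of 12.7 kb, and 31.0% were non-coding. The 246 genes with at least 50 normalised IgG tags and no 2 h peak were as short, with a median of 12.7 kb, and 16.3% were non-coding.

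High ratios were not matched by higher enrichment over input. The fold over input of a gene is its immunoprecipitate tags divided by its input tags under the same peaks, and for IgG both were rescaled outside the Rn7sk peak, which multiplies the fold by 1.45. This fold was higher in NONO than in IgG in 144 of the 4940 genes, and in 856 with IgG folds as deposited. Rescaled, it was at least 2 times higher in 18 genes (0.364%) and at most 0.5 times in 1640 (33.2%), with a median ratio of folds of 0.562. Of the 1494 genes above background by tags, 16 had a ratio of folds of at least 1, or 1.07%, against 2.92% of all 4940. In genes above, the median fold was 2.70 in NONO and 5.93 in IgG. The NONO peaks were also longer. Covered length was greater in NONO than in IgG for 1485 of the 1494. Per kb of covered length, 103 of the 1494 remained at least 2-fold above IgG.

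Fold over input was also mostly lower in NONO where both lists called the same region. These were 1574 pairs of peaks that overlapped by at least 80% of each, beside 24291 2 h peaks that met IgG. The rule keeps pairs of similar width and leaves out regions where either list called a much longer peak, which limits the tag ratio. Over the pairs, the median NONO to IgG ratio was 0.967 (1.55 as deposited). The ratio of their inputs was 1.85. The median fold over input was 2.76 in NONO and 3.53 in IgG, or 5.11 rescaled, and NONO had the higher fold in 6.10% of pairs. In the 121 pairs with over 100 normalised tags in both, the median ratio was 1.16. The highest ratio among those lay in Cyp7b1 (chromosome 3, 18131149 to 18135247), with 1018 normalised tags against 304.9 rescaled, a tag ratio per kb of 3.32 and an input ratio of 5.69.

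Only 9 genes were above background by summed tags and had both a ratio per kb and a ratio of folds of at least 1. All but Acot12 were picked once their values were known, outside the rule for named genes. Acot12, the acetyl-CoA hydrolase gene of liver cytosol, held 4164 normalised tags at 2 h at 7.18-fold over input, against 492.7 in IgG at 3.93-fold (ratio 8.45, 7.77 to 9.21, ratio of folds 1.83). The fasted library held 9183 there and the 10 h library 3457. Most of the 2 h signal was 1 peak of 3940 normalised tags (chromosome 13, 91741795 to 91750487) inside Acot12, which also lies over the small RNA gene Gm24597. Its first bases reach the antisense gene 4833422C13Rik, which ends at 91741872 and joins the 9 through that peak alone. With peaks over Acot12 alone, which leave out this peak for that short overlap, the ratio was 0.530. The long non-coding gene 1300002E11Rik and the kinase gene Map3k13, which overlaps it (ratio 6.46), shared an IgG-free peak of 1469 normalised tags at 15.1-fold over input. 1300002E11Rik as a whole held 1497 at 2 h, 2026 fasted, 1403 at 10 h and 25.3 in IgG (ratio 59.2, 41.4 to 88.0, ratio of folds 3.39).

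The other 5 were smaller. Stra6l, which encodes a retinol-binding protein receptor of liver, held 645.7 normalised tags at 7.86-fold against 79.2 at 3.94-fold in IgG (ratio 8.15, 6.62 to 10.2). Fbxo3, of a ubiquitin ligase complex, held 744.8 at 6.59-fold against 308.2 at 3.44-fold (2.42, 2.16 to 2.72), with 1898 fasted and 1122 at 10 h. The transcription factor gene Tshz1 held 1004 against 161.7 (6.21), and the antisense gene Rab10os 185.4 against 22.7 (8.16). BC048644 shares its 1 peak, of 467 normalised tags at 9.77-fold, with Car5a, the mitochondrial carbonic anhydrase gene, and was at a ratio of 9.73. Every one of the 9 except 4833422C13Rik also had over 150 normalised tags in both the fasted and the 10 h NONO library.

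**Figure D4:**
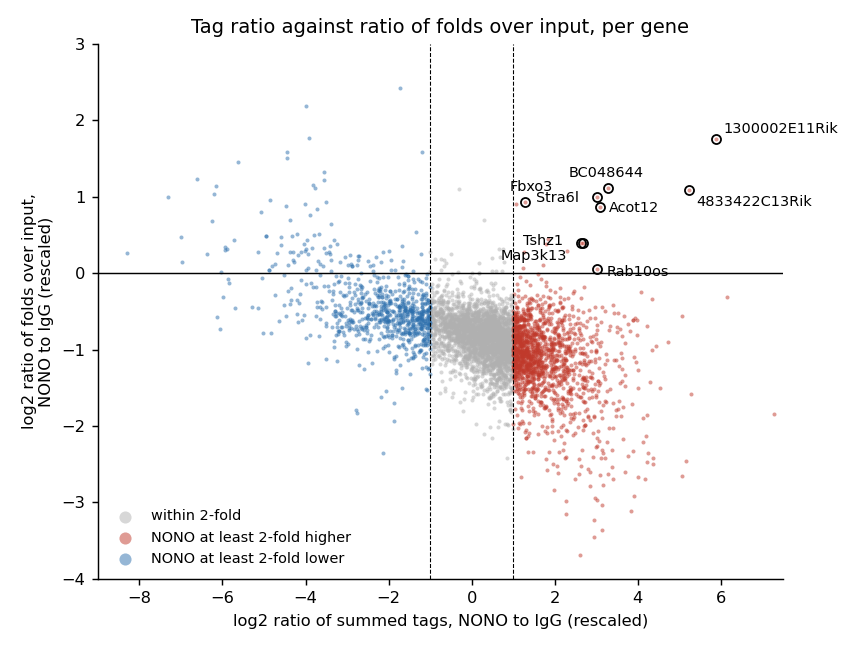
Log2 ratio of summed tags (NONO to IgG, rescaled) against log2 ratio of folds over input for the 4940 genes with a ratio; dashed lines mark 2-fold in tags, the solid line equal fold, and the 9 genes at or above IgG on tags, tags per kb and fold are circled and named. Most red points, the genes above by tags, lie under the solid line, and 16 of the 1494 lie on or over it.

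RNA-binding protein genes were above background about as often as all genes, with Sfpq the highest. Of the 25 listed paraspeckle and nuclear RNA-binding proteins, 19 had a ratio. Of these, 6 (Sfpq, Nono, Celf1, Matr3, Hnrnpa2b1 and Cpsf7) were above and 2 (Hnrnpk and Tardbp) below, with a median log2 ratio of 0.59 beside 0.47 for all 4940 genes. The lists were described by counts alone. Matr3, Tardbp, Prkaa2, Rps6kb1, Rptor, Tsc1 and Cyp7a1, whose values are given below, were picked once those values were known. Nono itself held 144.1 normalised tags at 2 h, 101.7 fasted, 145.5 at 10 h and 54.7 in IgG (ratio 2.64, 2.01 to 3.50). Pspc1 was within 2-fold (1277 against 1001, ratio 1.28). Matr3, of the nuclear matrix, was just above (1224 against 603.7, ratio 2.03), and Tardbp (TDP-43) had 34.6 against 393.2. Of 15 listed nuclear long non-coding RNAs, 5 had a ratio and none was above, while 1 of the 5 (Airn) was below. Neat1 held 20421 normalised tags against 24836 in IgG as deposited and 39728 rescaled, a ratio of 0.514 (0.507 to 0.521), at 3.30-fold over input against 3.63-fold rescaled or 2.51-fold as deposited, so the order of the folds turned with the scaling. As a share of library tags, Neat1 was thus no higher in NONO than in IgG at 2 h on either scale. The input under the Neat1 peaks held 6183 normalised tags at 2 h and 9903 as deposited in IgG. The amount of RNA recovered was not measured.

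Of the named genes above background, Egfr, the gene of the EGF receptor, held the most signal. Of 20 insulin and nutrient signalling genes with a ratio, 6 were above and 1 (Igf2r) below, beside 30.2% and 15.7% of all genes with a ratio. Egfr held 53669 normalised tags at 2 h, 6180 fasted, 4054 at 10 h and 13463 in IgG (ratio 3.99, 3.92 to 4.05). Both other NONO libraries were under the rescaled IgG level there. Under the Egfr peaks of each list, the input held 23482 normalised tags at 2 h and 3814 as deposited in IgG (ratio of folds 0.715). Igf1, the gene of the growth factor that liver secretes, held 7081 at 2 h, 550.6 fasted, 2438 at 10 h and 2865 in IgG (2.47, 2.38 to 2.57). Under its peaks the input held 3301 at 2 h and 791.3 as deposited in IgG (ratio of folds 0.655). Ghr, the growth hormone receptor, held 32526 against 31158 (1.04), and Insr 1218 against 682.2 (1.79), both within 2-fold. Prkaa2, Rps6kb1, Rptor and Tsc1 of AMPK and mTOR signalling were at 3.09, 3.44, 2.64 and 2.12. Esr1, the oestrogen receptor alpha gene, held 2576 against 852.3 (3.02, 2.83 to 3.24), but 1.10 per kb.

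Of 15 genes with a ratio in glucose uptake and glycolysis, 4 were above (30.2% of all genes were above and 15.7% below), among them Pfkfb2, Pklr and Slc2a9, and 5 below, among them Eno1, Gapdh, Khk and Mlxipl, with a median log2 ratio of -0.56. Slc2a2 (GLUT2) held 438.1 against 650.9 (0.673). Of 14 in gluconeogenesis, 4 (Creb1, Foxo1, G6pc and Got1) were above and 4 (Mdh1, Pck1, Sik1 and Tat) below. The only 2 h peak counted for G6pc, the last step of glucose release, held 155.0 against 59.0 (2.63, 2.03 to 3.46, and 1.03 per kb). It met an IgG peak, and only 16 of its 2152 bp lay inside the gene, at its end. Pck1, the first committed step, held 66.9 against 4679 (0.0143, 0.0120 to 0.0169). The 2 h peak and the IgG peak of Pck1 did not overlap, the first being intronic and the second exonic by midpoint. Under the first the 2 h input held 33.4 normalised tags, and under the second the IgG input held 1424 as deposited. These input values are from different stretches of the gene. Of 11 in glycogen metabolism, 2 (Phkb and Ppp1r3c) were above and 0 below.

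Fat synthesis genes were below in 7 of 23 cases, beside 15.7% of all genes with a ratio. Of the 23 with a ratio in lipogenesis and sterol synthesis, 2 (Elovl6 and Scap) were above and 7 below, among them Acly, Agpat2, Fads2, Fasn and Fdft1, with a median log2 ratio of -0.22. Elovl6, which elongates palmitate, held 8600 normalised tags at 2 h, 223.9 fasted, 1240 at 10 h and 4045 in IgG (2.13, 2.059 to 2.195). Under its peaks the input held 3835 at 2 h and 979.2 as deposited in IgG (ratio of folds 0.600). Fasn, the fatty acid synthase gene, held 51.2 against 3433 (0.0149, 0.0122 to 0.0181), and Srebf1, which encodes the SREBP-1 regulator, 120.4 against 144.9 (0.831). In fatty acid oxidation and ketogenesis 5 of 17 were above (Acot12, Cpt1a, Ehhadh, Hadha and Hadhb) and 3 below, 1 of them Acaa1b. Bile acid and xenobiotic genes had 2 of 17 above, beside 30.2% of all genes, and 7 below, with a median log2 ratio of -0.81. With IgG as deposited 4 were above and 3 below. Cyp7b1, an oxysterol hydroxylase gene, held 34951 at 2 h, 6730 fasted, 3395 at 10 h and 9397 in IgG (3.72, 3.646 to 3.795). Under its peaks the input held 12302 at 2 h and 2395 as deposited in IgG (ratio of folds 0.800). Cyp7a1, the rate-limiting enzyme of bile acid synthesis, held 261.7 against 1234 (0.212).

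Of 13 clock genes with a ratio, 3 (Clock, Nfil3 and Per1) were above and 4 below, among them Per2, Per3 and Rora, with a median log2 ratio of 0.14 (all genes, 30.2% above and 15.7% below). Clock held 1245 against 492.6 (2.53, 2.31 to 2.77). Per1 held 155.5 at 2 h, 20 fasted, 14.8 at 10 h and 73.3 in IgG (2.12, 1.67 to 2.72). Per2 held 439.8, 21.8, 49.8 and 1522 in the same order (0.289, 0.267 to 0.313). Both Per genes had their highest NONO value at 2 h, but only Per1 lay above IgG, and per kb Per2 was at 1.15. Dbp had no peak in either list, nor did Malat1.

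**Figure D5:**
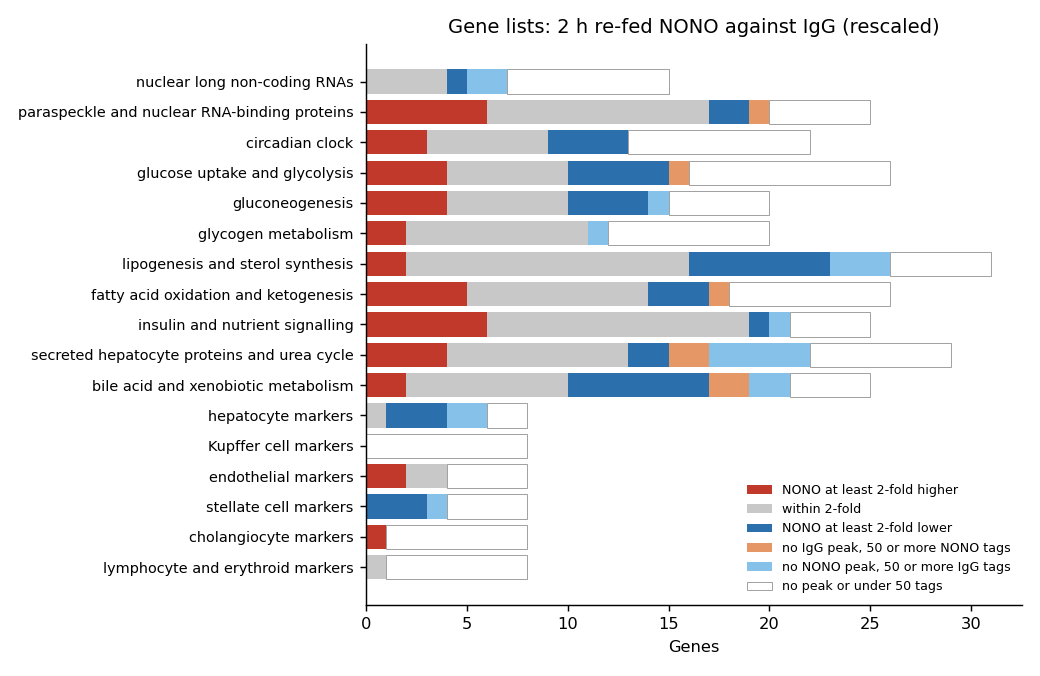
Number of genes of each list by class in the comparison of 2 h NONO with rescaled IgG; red is at least 2-fold higher, grey within 2-fold, dark blue at least 2-fold lower, orange and light blue a peak in one list alone with 50 or more tags, and white no peak or too few tags. Signalling and RNA-binding protein genes have 6 members above each, and lipogenesis and bile acid genes have 7 below each. Of all genes with a ratio, 30.2% were above and 15.7% below.

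Cell type markers were counted in the same way, beside 30.2% above and 15.7% below among all genes with a ratio. Of the 4 hepatocyte markers with a ratio, 3 were below, among them Hnf4a and Tat, and Cps1 was within 2-fold. Summed over the 8 markers, NONO held 7654 normalised tags and IgG 27275 rescaled. Secreted hepatocyte and urea cycle genes had 4 of 15 above, among them F2, Fn1 and Serpinc1, and 2 below (Ass1 and Trf). Endothelial markers had 2 of 4 above (Fcgr2b and Kdr) and sums of 1757 and 984.5 normalised tags. All 3 stellate cell markers with a ratio (Dcn, Hgf and Reln) were below, with sums over the 8 markers of 286.9 and 5130. Cholangiocyte markers had 1 ratio and lymphocyte and erythroid markers 1 (Ptprc, 0.861). No Kupffer cell marker reached a ratio. Cd5l, Cd68, Clec4f and Marco had no peak in either list, and the Kupffer sums were 33.6 and 41.3. The part of cell make-up in the ratios was not tested.

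The lowest ratios were set by single large IgG peaks or by many small ones. Parp2 held 14.7 normalised tags against 130626 in IgG, and the IgG peak there covers Rpph1, the RNA of nuclear RNase P. The IgG signal of Zc3hav1 (63.0 against 19944) also lay mainly in 1 peak, of 12457.5 normalised tags as deposited. Sgta held 11.9 against 1509, and Cyp2d9, in a family of near-identical genes, 6.64 against 546.5. Reln, by contrast, held 20.9 over 4 peaks against 3329 over 104 IgG peaks (0.00627), and Pde3a 11.9 over 1 peak against 1174 over 49. Reln encodes a secreted protein of stellate cells and Pde3a a phosphodiesterase of muscle.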

How the data were processed

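Liver nuclei were isolated through a sucrose cushion and stranded, ribosomal RNA-depleted libraries were made, per the labels' protocols. Tools in the submitters' processing notes are STAR 2.4.0k, FastQC 0.11.2 and HOMER, with the mm10 build. Peaks were called by the authors, per the file headers, against each library's own input on both strands together, in windows of 500 bp joined within 1000 bp. The deposited signal is normalised tags, scaled by the authors to 10000000 tags. The fold, a ratio computed by the authors from immunoprecipitate and input, is at least 2, and the deposited score is the authors' HOMER peak score, used only to rank peaks. Reads and a genome sequence were not used here, so base composition of peaks was not computed.

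A peak counted for each of the 21951 protein-coding and 10155 non-coding gene bodies it touched; 6.47% of 2 h peaks lay over more than 1 gene. Genes were called above or below background at a rescaled ratio of 2 or 0.5. Input tags were derived from tags and fold. With 1 library per group no test was made. Named genes were the 12 highest and 6 lowest ratios at 200 or more normalised tags, with at least 80% of NONO tags over no other coding gene, the 12 with most tags and no IgG peak, the 8 IgG-free peaks with most tags, up to 3 members per list and a fixed set of genes, of which some are not reported here. The genes and lists were chosen with earlier results of these data known. Of 93 named genes, 71 had a RefSeq promoter. The script was tested on simulated data: 200 of 200 planted ratios (1380 genes) and 1500 planted overlaps were recovered. Scripts ran on Python 3.11.15 with pandas 2.3.3, scipy 1.17.1 and numpy 2.4.6.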

Additional observations from a re-analysis of the deposited data

How the results depend on the processing

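No paired analysis was possible because there was only 1 library in every group. The share of 2 h peaks that met IgG was 39.4%. It was 21.7% where IgG had to cover 50% of the peak, 14.1% with peaks of at least 4-fold over input and 41.6% with the 2 h list at the length of the IgG list. Genes above and below background (1494 and 778) numbered 2750 and 482 with IgG as deposited, 771 and 276 at 200 normalised tags, 133 and 428 per kb of covered length, and 479 and 395 at a fold of 4. With peaks of at least 4-fold, 1527 genes could be compared, of which 148 were above and 853 (55.9%) below, and 128 of the 1494 turned to below. Without a tag minimum 1364 were below. Genes without an IgG peak (268) numbered 27 at 4-fold, 25 at 200 normalised tags and 1770 without a minimum. The median ratio of matched peaks (0.967) was 0.978 at 50% overlap, 0.832 at 95% and 1.55 as deposited. Genes with the higher fold in NONO (144) numbered 856 with IgG folds as deposited and 48 at 20 input tags.

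Per kb, 5 named ratios changed side: Stk24 (0.967), Nol10 (0.908), Fn1 (0.943), Rora (1.14) and Per2 (1.15). With peaks of at least 4-fold, Slc17a1 (0.479), Vmp1 (0.241), Scp2 (0.812), Foxo1 (0.0764), and Esr1 (0.439) came under 1, and Zc3hav1 (1.35) and Hgf (3.73) over it. With peaks over 1 gene, Gm12940 (0.849) and Acot12 (0.530) did so. The cause was not tested. The median gene above background had 78 raw IgG tags and 173 had under 20, which limits their ratios.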

Other observations

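Small RNA genes of the GENCODE annotation were met by both lists in different numbers. A 2 h peak lay over 157 of 2202 miRNA genes, with no IgG peak over the 2 h peak for 83, and 76 lay under an IgG peak. Of 1507 snoRNA genes, 50 lay under a 2 h peak and 67 under an IgG peak. For 562 genes of other small RNAs (misc_RNA, which includes 7SK copies) the numbers were 30 and 41. Beside the let-7 and Mir21a precursors, IgG-free 2 h peaks lay over Mir1894 in Ppp1r10 (1250 normalised tags, 2.39-fold over input), Mir148a (621.6, 3.23-fold), Mir101b in Rcl1 (479.8, 2.68-fold) and Mirlet7g in Wdr82 (286.9, 2.09-fold), which has the same seed as the other let-7 members. The 2 h peak over Mir30a held 1607 normalised tags and met an IgG peak. These genes were chosen after their values were seen.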
